A study of Homo sapiens with 15 samples.

Results

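Described here are 8 genes of cholesterol synthesis and its control in MM.1S, a cell line from a human multiple myeloma, given compounds against the coactivators CBP and p300. They are SREBF1 and SREBF2, which encode the sterol regulatory element-binding proteins (SREBPs), INSIG1, and the enzyme genes ACAT2, HMGCS1, IDI1, SQLE and CYP51A1. The genes were chosen by symbol, matched through their Ensembl identifiers, and by no threshold on their measured values. Earlier results of these data were known when these genes were chosen. They are 8 of 47459 genes with values, and all 8 passed the filter on low values. Cells were treated for 6 h with A-485 at 100 nM, GNE-781 at 100 nM, both together at 100 nM each (the combination), dCBP-1 at 100 nM, or DMSO, the vehicle. A-485 blocks the acetyltransferase activity of CBP and p300, and GNE-781 blocks their bromodomains. The degrader dCBP-1 targets the same proteins, and is built from a bromodomain ligand like GNE-781 and a ligand of cereblon, a ubiquitin ligase subunit. Each of the 5 groups had 3 libraries of mRNA 3′ ends. The treatment field of 2 combination libraries reads GNE-782 and GNE-783, while the titles of all 3 name GNE-781; the titles were followed. All groups are the same line with no genetic change named in the labels, and none had a cereblon ligand alone. CBP and p300 proteins were not measured here.

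SREBPs are made as membrane proteins of the endoplasmic reticulum. When sterols are low, the escort protein SCAP carries them to the Golgi, where the proteases encoded by MBTPS1 and MBTPS2 release a fragment that enters the nucleus and activates genes. INSIG1 holds SCAP back when sterols are plentiful, and CBP is a known coactivator of nuclear SREBPs. The SREBF2 product acts mainly on cholesterol synthesis and uptake, and the short SREBF1 isoform mainly on fatty acid synthesis. SREBF2 and INSIG1 are themselves known SREBP targets, as are the enzyme genes. 3′ end reads do not separate isoforms, nor do they report the cleavage of SREBPs.

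The start regions of SREBF1, SREBF2, INSIG1 and HMGCS1 are shown because these genes changed in opposite directions, as described further on, although the last 3 are all known SREBP targets. Sequences are from RefSeq on GRCh38.p14, 250 bases before to 50 after the first start listed for each gene, 5′ to 3′ on the gene's strand. Of the 8 genes, 6 had an entry, and ACAT2 and SQLE did not. Capitals mark matches, on either strand, to the letters TCACCCCAC (the core of a sterol regulatory element), TCACGTGA (an E-box) and CCAAT (the box bound by NF-Y, a known partner of SREBPs).
SREBF1, chr17:17836937-17837236, minus strand: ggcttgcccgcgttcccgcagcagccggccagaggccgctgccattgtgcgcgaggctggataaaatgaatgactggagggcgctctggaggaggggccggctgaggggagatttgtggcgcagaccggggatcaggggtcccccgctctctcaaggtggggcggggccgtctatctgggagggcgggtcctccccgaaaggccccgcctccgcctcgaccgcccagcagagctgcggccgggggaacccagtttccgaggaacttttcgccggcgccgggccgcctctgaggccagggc
SREBF2, chr22:41832855-41833154, plus strand: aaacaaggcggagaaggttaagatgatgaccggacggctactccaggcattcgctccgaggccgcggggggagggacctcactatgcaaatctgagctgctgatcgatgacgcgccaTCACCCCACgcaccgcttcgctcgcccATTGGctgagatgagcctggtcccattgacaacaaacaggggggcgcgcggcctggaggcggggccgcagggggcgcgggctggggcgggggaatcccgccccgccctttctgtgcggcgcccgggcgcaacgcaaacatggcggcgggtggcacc
INSIG1, chr7:155297628-155297927, plus strand: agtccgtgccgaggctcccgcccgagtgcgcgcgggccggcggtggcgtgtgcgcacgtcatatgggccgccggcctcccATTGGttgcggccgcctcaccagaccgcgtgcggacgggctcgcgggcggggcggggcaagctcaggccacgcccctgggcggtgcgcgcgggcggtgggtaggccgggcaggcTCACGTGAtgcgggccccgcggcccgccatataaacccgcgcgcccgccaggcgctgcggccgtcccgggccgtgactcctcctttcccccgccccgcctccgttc
HMGCS1, chr5:43313363-43313662, minus strand: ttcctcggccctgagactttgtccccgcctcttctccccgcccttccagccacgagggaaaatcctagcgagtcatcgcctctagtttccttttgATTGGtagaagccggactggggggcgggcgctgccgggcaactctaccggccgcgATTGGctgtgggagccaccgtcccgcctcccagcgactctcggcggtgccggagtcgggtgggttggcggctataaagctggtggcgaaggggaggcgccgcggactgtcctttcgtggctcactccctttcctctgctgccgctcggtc
The SREBF2 region held 1 sterol regulatory element core and 1 CCAAT box, and that of INSIG1 held 1 E-box and 1 CCAAT box. The HMGCS1 region held 2 CCAAT boxes, and that of SREBF1 held none of these letters. Only the start listed for SREBF1 was read, so any other start of this gene was not examined. A second start listed for HMGCS1, not shown, held none of these letters. Among 35116 promoters of the same length, 0.43% held the core, 0.98% the E-box and 34.6% a CCAAT box. A match describes the letters only. Since only these exact letters were sought, a region without a match is not shown to lack such an element.

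Levels are normalized read counts, the unit of the deposited values, which do not scale with transcript length. Depth was 13103114 to 18291529 reads a library. DMSO replicates 1 and 2 stood apart: mitochondrially encoded protein genes took 7.59% to 8.61% of the reads in the treated libraries, against 10.97%, 9.58% and 8.73% in DMSO replicates 1, 2 and 3. Genes with a read numbered 19128 to 21140 in the treated libraries, against 16557, 17585 and 19927 in DMSO replicates 1, 2 and 3. Many of the results against DMSO, though not all, are therefore also given without DMSO replicates 1 and 2, that is against DMSO replicate 3 alone. By the median ratio of a library's values to each gene's geometric mean over all libraries, DMSO replicate 3 stood highest, at 1.10. DMSO replicates 1 and 2 stood at 0.956 and 0.973. A reference that reads high lowers the fold changes against it, and how far this moved the results was not tested. Of 9 plasma cell markers all 9 passed the filter. Their summed level was 22580 to 23990 with dCBP-1 and 73202 to 79080 with DMSO, values that move with every difference between these groups. The sum joins genes of unlike range: over all libraries JCHAIN ran from 14786 to 23060, and MAF from 502 to 18021. The part of these markers in the results was not tested. Markers of T cells, monocytes, early B cells, epithelium and stroma summed to at most 33.2 in any library for any type, with CD3D and CSF1R at 0 in all.

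With dCBP-1 the transcripts of both SREBP genes and of INSIG1 were lower than with DMSO, while those of ACAT2 and HMGCS1, which make the early intermediates of cholesterol synthesis, were higher. SREBF1 reached 0.358 times and SREBF2 0.586 times its DMSO level, on the fitted scale. ACAT2 reached 2.24 times and HMGCS1 1.996 times. With GNE-781 and with the combination SREBF1 and SREBF2 also fell and ACAT2 and HMGCS1 rose, while INSIG1 fell with the combination. With A-485, SREBF1 and INSIG1 fell. A gene is called when its limma p-value, adjusted over the 16104 genes tested by the Benjamini-Hochberg method, is below 0.05. The changes with dCBP-1 named here were called in each of 17 alternative fits (other scalings, filters, tools, or libraries left out). The falls of SREBF1 with GNE-781 and the combination, and of INSIG1 with the combination, were as well. The other changes named here with inhibitors each lost their call in 1 to 8 of the 17. In bulk samples, fewer cells and less RNA per cell cannot be told apart.

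Of the 8 genes, 2 were called with A-485, both lower, where 2.14% of all genes tested were called and 1.79% were called lower. With GNE-781, 4 were called, 2 higher and 2 lower, where the background was 16.6% (7.82% higher, 8.81% lower). The combination had 5 called, 2 higher and 3 lower, against 21.0% of all genes (11.4% higher, 9.60% lower). With dCBP-1, 6 were called, 2 higher and 4 lower, against 37.8% (19.3% higher, 18.5% lower). The groups did not overlap for 4 genes with A-485, 6 with GNE-781, 5 with the combination and 6 with dCBP-1, and over all genes they did not overlap for 15.1%, 31.6%, 30.4% and 44.3%. The median log2 fold change of the 8 genes was −0.37 with A-485, −0.22 with GNE-781, −0.35 with the combination and −0.42 with dCBP-1, where the medians of all genes tested were −0.03, 0.07, 0.09 and 0.07. All 4 comparisons use the same DMSO libraries. Against DMSO replicate 3 alone, the genes called with dCBP-1 were not all the same. CYP51A1 had −0.50 in place of −0.80 and left them, and SQLE had −1.04 in place of −0.18 and joined them. Without DMSO replicates 1 and 2, the counts were 0 with A-485, 2 (both lower) with GNE-781, 3 (all lower) with the combination and 6 with dCBP-1 (2 higher and 4 lower). Over all 16104 genes the calls fell as well, to 13 with A-485, 889 with GNE-781, 1081 with the combination and 3802 with dCBP-1, against 345, 2679, 3383 and 6092 with all 3 DMSO libraries.

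**Figure D1:**
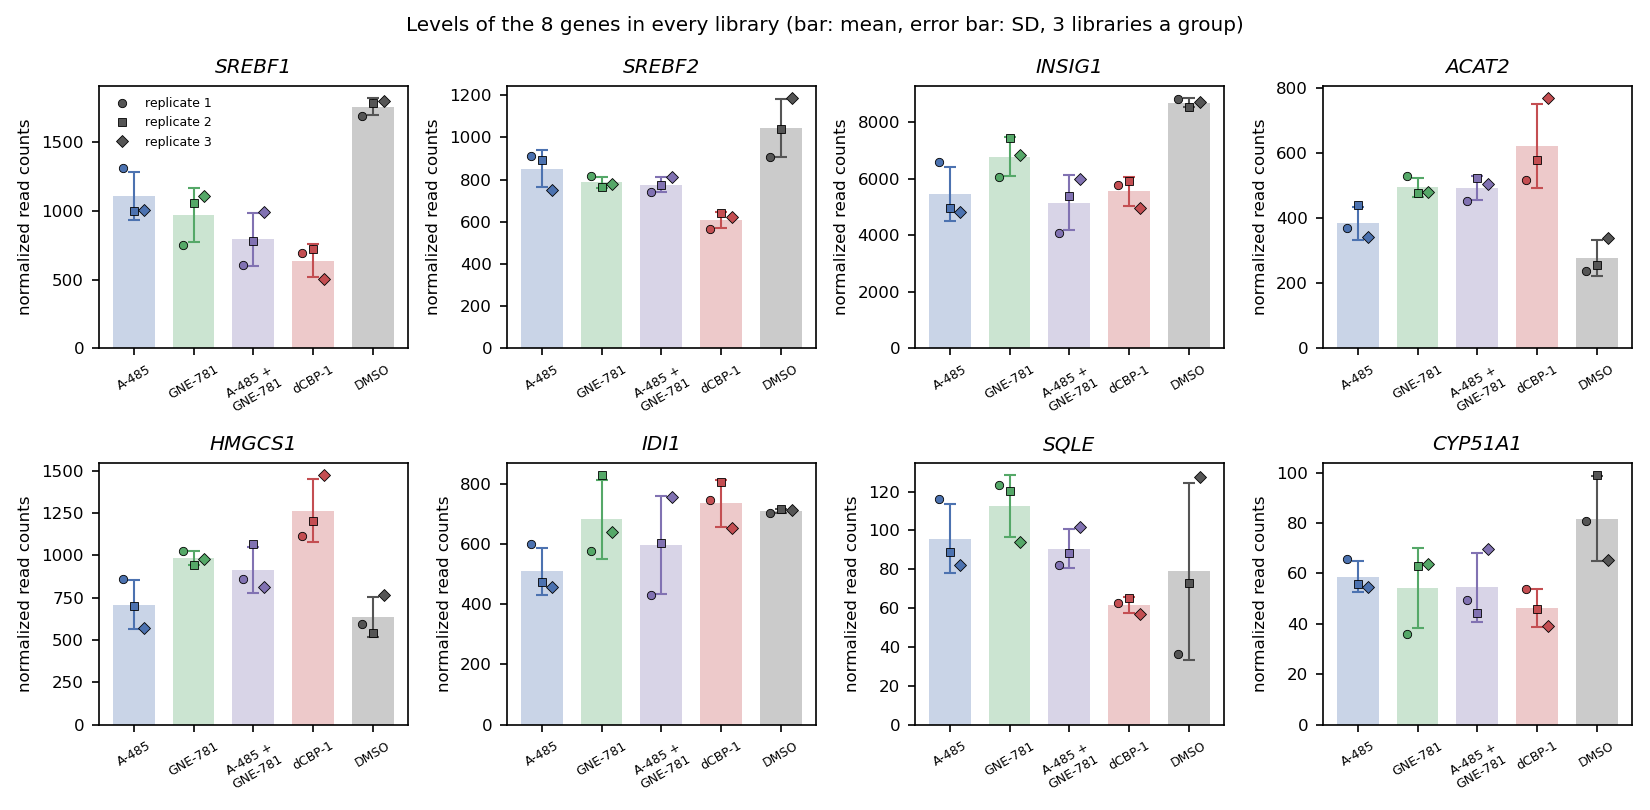
Normalized read counts (y axes, linear from 0) of the 8 genes in every library of the 5 groups (x axes). Points are libraries, bars are means and error bars are SDs (n = 3). SREBF1 sits at 1695 to 1805 in DMSO libraries and at 500.4 to 1313 in all others, and HMGCS1 and ACAT2 reach their highest means with dCBP-1.

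SREBF1 (ENSG00000072310) had 1313, 1003 and 1011 normalized read counts with A-485, 749, 1060.0 and 1109 with GNE-781, 608, 780.9 and 992 with the combination, 694, 722 and 500.4 with dCBP-1, against 1695, 1786 and 1805 with DMSO. All 12 treated libraries lay below all 3 DMSO libraries. The log2 fold changes against DMSO were −0.68 ± 0.17 with A-485 (SE; limma adjusted p = 0.032), −0.88 ± 0.17 with GNE-781 (limma adjusted p = 0.00074), −1.18 ± 0.17 with the combination (limma adjusted p = 1.6e-05) and −1.48 ± 0.17 with dCBP-1 (limma adjusted p = 5.4e-08). In ascending order the means were 639 ± 121 with dCBP-1, 793 ± 192 with the combination, 972 ± 195 with GNE-781, 1109 ± 177 with A-485 and 1762 ± 58.8 with DMSO (SD, n = 3 each). A-485 and DMSO differed by the test, whereas no other pair of neighbours in this order did. The fall with A-485 lost its call in 7 of 17 alternatives, among them each of 4 single libraries left out (A-485 replicates 2 and 3, DMSO replicates 1 and 2; −0.61 to −0.71, adjusted p 0.066 to 0.16) and the pair of DMSO replicates 1 and 2 (−0.71, adjusted p = 0.30). The falls with GNE-781, the combination and dCBP-1 were called in all 17, and that with dCBP-1 was −1.52 without DMSO replicates 1 and 2 (adjusted p = 6.3e-05).

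SREBF2 (ENSG00000198911) moved less. It had 911, 892 and 751 normalized read counts with A-485, 817, 766 and 778 with GNE-781, 743, 772 and 814 with the combination, 563, 639 and 622 with dCBP-1, against 907, 1039 and 1185 with DMSO. The dCBP-1 libraries were the 3 lowest of all 15, and only the A-485 group overlapped DMSO. The log2 fold change was −0.77 ± 0.13 with dCBP-1 (limma adjusted p = 3.3e-05), and −0.96 without DMSO replicates 1 and 2 (adjusted p = 0.00019). It was −0.40 ± 0.13 with GNE-781 (limma adjusted p = 0.039) and −0.42 ± 0.13 with the combination (limma adjusted p = 0.025). These smaller falls lost their calls in 8 and 5 of 17 alternatives, including without DMSO replicate 2 (adjusted p = 0.099 and 0.066) and without DMSO replicate 3 (−0.30, adjusted p = 0.11, and −0.32, adjusted p = 0.080). They were also lost without any one of the 3 GNE-781 libraries (adjusted p 0.084 to 0.12), and without combination replicate 1 or 2 (adjusted p = 0.068 and 0.077). With A-485 the value was −0.29, and its 95% interval −0.56 to −0.02 (limma adjusted p = 0.29).

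INSIG1 (ENSG00000186480), whose product retains the SCAP and SREBP complex, had 6577, 4967 and 4826 normalized read counts with A-485, 6072, 7443 and 6830.3 with GNE-781, 4083, 5389 and 5979 with the combination, 5759, 5926 and 4957 with dCBP-1, against 8822, 8529.5 and 8723 with DMSO. Every treated library lay below every DMSO library. INSIG1 fell by 0.65 ± 0.15 on the log2 scale with dCBP-1 (limma adjusted p = 0.00067), by 0.77 ± 0.15 with the combination (limma adjusted p = 0.00033) and by 0.69 ± 0.15 with A-485 (limma adjusted p = 0.0097). The A-485 call was lost with A-485 replicate 2 or 3 or DMSO replicate 2 left out (adjusted p 0.057 to 0.069), and against DMSO replicate 3 alone (−0.69, adjusted p = 0.20). With GNE-781 the value was −0.36, and the interval −0.66 to −0.07 (limma adjusted p = 0.086), and it passed the threshold under TMM or median-ratio scaling and with edgeR or DESeq2 (adjusted p 0.0048 to 0.024). Unlike SREBF1, INSIG1 was not lowest with dCBP-1: the means were 5457 with A-485, 6782 with GNE-781, 5150.5 with the combination and 5547 with dCBP-1. No pair of these 4 treatments differed by the test.

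ACAT2 (ENSG00000120437) encodes the cytosolic thiolase that joins acetyl-CoA units at the entry to the pathway. It had 369, 441 and 342 normalized read counts with A-485, 528, 476 and 479 with GNE-781, 451, 523 and 504 with the combination, 518, 578 and 767 with dCBP-1, against 235, 255 and 339 with DMSO. All treated libraries lay above all DMSO libraries, with A-485 replicate 3 only just above DMSO replicate 3. ACAT2 rose by 1.16 ± 0.17 on the log2 scale with dCBP-1 (limma adjusted p = 1.9e-06), and by 0.85 ± 0.17 both with GNE-781 (limma adjusted p = 0.00066) and with the combination (limma adjusted p = 5e-04). With A-485 the value was 0.48, and the interval 0.14 to 0.82 (limma adjusted p = 0.13), and it passed the threshold under TMM and by edgeR and DESeq2 (adjusted p 0.020 to 0.043). It was 0.64 without DMSO replicate 3 (adjusted p = 0.021) and 0.17 against DMSO replicate 3 alone (adjusted p = 0.77). DMSO replicates 1 and 2 had the lowest levels of all libraries. Without them the rise with dCBP-1 was 0.85 and called (adjusted p = 0.0045), while GNE-781 and the combination both had 0.54 and were not called (adjusted p = 0.15 and 0.14).

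HMGCS1 (ENSG00000112972) encodes the synthase that makes HMG-CoA, the next step. Its levels were 859, 699 and 569 normalized read counts with A-485, 1028, 946 and 977 with GNE-781, 858, 1066 and 814 with the combination, 1115, 1203 and 1475 with dCBP-1, against 596, 543 and 767 with DMSO. The 3 dCBP-1 libraries were the highest of all 15, and A-485 overlapped DMSO. HMGCS1 rose by 0.997 ± 0.16 on the log2 scale with dCBP-1 (limma adjusted p = 1e-05), by 0.64 ± 0.16 with GNE-781 (limma adjusted p = 0.0055) and by 0.53 ± 0.16 with the combination (limma adjusted p = 0.018). Against DMSO replicate 3 alone, dCBP-1 had 0.71 (adjusted p = 0.015), GNE-781 0.36 (adjusted p = 0.37) and the combination 0.24 (adjusted p = 0.56). The combination's call was also lost when combination replicate 2 (0.41), DMSO replicate 1 (0.49) or DMSO replicate 2 (0.42) was left out, at adjusted p-values of 0.13, 0.059 and 0.11. With A-485 the value was 0.15, and the interval −0.17 to 0.48 (limma adjusted p = 0.70).

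Of the genes for later steps, IDI1 and SQLE were not called with dCBP-1, and CYP51A1 fell. IDI1 (ENSG00000067064), which makes dimethylallyl diphosphate, had 599, 473 and 456 normalized read counts with A-485, 576, 829 and 641 with GNE-781, 430.0, 604 and 755 with the combination, 745, 806 and 653 with dCBP-1, against 702, 715 and 714 with DMSO. Its A-485 libraries all lay below DMSO, and each of the other treatments overlapped DMSO. No treatment was called against DMSO, with log2 fold changes from −0.49 with A-485 (interval −0.84 to −0.14, limma adjusted p = 0.14) to 0.04 with dCBP-1 (interval −0.31 to 0.39, limma adjusted p = 0.87).

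SQLE (ENSG00000104549), the squalene epoxidase and an oxygen-dependent control point, was low. It had 116, 89.0 and 82.2 normalized read counts with A-485, 123, 120.2 and 94.1 with GNE-781, 82.0, 88.3 and 102 with the combination, 62.4, 65.4 and 56.9 with dCBP-1, against 36.5, 72.8 and 127 with DMSO. The spread among DMSO libraries was wider than that of all treated libraries together, and every treatment overlapped DMSO. Log2 fold changes ran from −0.18 with dCBP-1 (interval −0.79 to 0.43) to 0.67 with GNE-781 (interval 0.06 to 1.28, limma adjusted p = 0.12). Which DMSO library was used set the outcome: against DMSO replicate 3 alone, dCBP-1 was at −1.04 (adjusted p = 0.012). Without DMSO replicate 3, GNE-781 was at 1.10 (adjusted p = 0.0056) and the combination at 0.79 (adjusted p = 0.035).

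CYP51A1 (ENSG00000001630), the lanosterol demethylase, was also low. It had 65.8, 56.0 and 54.6 normalized read counts with A-485, 35.9, 63.1 and 63.7 with GNE-781, 49.4, 44.1 and 69.9 with the combination, 54.0, 46.0 and 39.1 with dCBP-1, against 80.7, 99.1 and 65.5 with DMSO. The dCBP-1 and GNE-781 libraries lay below all DMSO libraries, and the other treatments overlapped DMSO. CYP51A1 fell by 0.80 ± 0.29 with dCBP-1 (limma adjusted p = 0.029), a call lost in 7 of 17 alternatives, including with any one of DMSO replicates 1 and 2 and dCBP-1 replicates 2 and 3 left out (−0.65 to −0.80, adjusted p 0.052 to 0.12). Without DMSO replicates 1 and 2 together it had −0.50 (adjusted p = 0.38). The values for A-485, GNE-781 and the combination were −0.45, −0.61 and −0.59, none called (limma adjusted p = 0.47, 0.15 and 0.15). SQLE and CYP51A1 had 33 to 134 reads in any library, fewer than the other 6 genes.

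**Figure D2:**
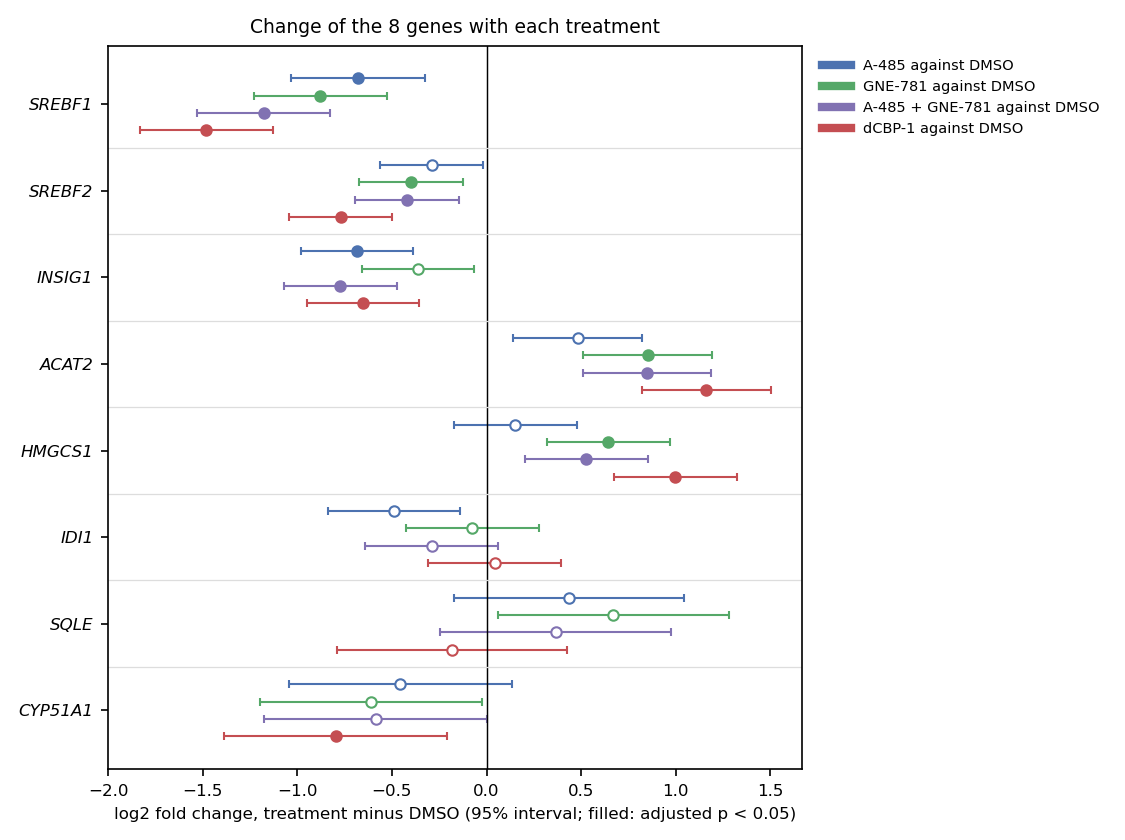
Log2 fold changes (x axis, treatment minus DMSO) of the 8 genes with 95% intervals from the limma fit; filled points have an adjusted p below 0.05. SREBF1, SREBF2 and INSIG1 lie left of 0, ACAT2 and HMGCS1 right of it, and SREBF1 runs from −0.68 with A-485 to −1.48 with dCBP-1.

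dCBP-1 was set against each inhibitor treatment at the same dose and time, a comparison whose fold changes use no DMSO library. Against A-485, 5 of the 8 genes were called, 3 higher and 2 lower, where 24.5% of all genes were called (12.9% higher, 11.6% lower). The degrader's levels were lower for SREBF1 (−0.80 ± 0.17, limma adjusted p = 0.00081) and SREBF2 (−0.48 ± 0.13, adjusted p = 0.0079). They were higher for HMGCS1 (0.84 ± 0.16, limma adjusted p = 0.00018), ACAT2 (0.68 ± 0.17, adjusted p = 0.0027) and IDI1 (0.53 ± 0.17, adjusted p = 0.022). In each of these 5 genes the dCBP-1 and A-485 libraries did not overlap; over all 8 genes this held for 7, and over all genes tested for 39.1%. The IDI1 call was lost with A-485 replicate 2 or 3 or dCBP-1 replicate 1 or 2 left out (adjusted p 0.060 to 0.10), and the other 4 calls were kept in all 16 alternatives. INSIG1 had a difference of 0.03, with an interval of −0.26 to 0.33.

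Against GNE-781, whose ligand type dCBP-1 carries, 1 of the 8 genes was called, in the lower direction, where the background was 9.31% (7.13% lower). The libraries did not overlap for 5 of the 8, against 32.0% of all genes. SREBF1 was lower with dCBP-1 (694, 722 and 500.4 normalized read counts, against 749, 1060.0 and 1109 with GNE-781), a difference of −0.60 ± 0.17 (limma adjusted p = 0.023). This call was lost with dCBP-1 replicate 3 (−0.44), GNE-781 replicate 2 (−0.53) or GNE-781 replicate 3 (−0.50) left out, at adjusted p-values of 0.16, 0.12 and 0.15. Differences that missed the threshold, with their intervals, were −0.37 for SREBF2 (−0.65 to −0.10), −0.85 for SQLE (−1.46 to −0.24) and 0.35 for HMGCS1 (0.03 to 0.68). SREBF2 and SQLE were called by edgeR and DESeq2 and under TMM or median-ratio scaling (adjusted p 0.0047 to 0.049). HMGCS1 was called by DESeq2 and in a limma fit to the compared groups alone. ACAT2, INSIG1, IDI1 and CYP51A1 had differences of 0.31 (−0.03 to 0.65), −0.29 (−0.59 to 0.01), 0.12 (−0.23 to 0.47) and −0.19 (−0.77 to 0.40).

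Against the combination, 0 of the 8 genes were called by limma, where the background was 6.17%. The libraries did not overlap for 3, against 23.1% of all genes. Unadjusted p-values were below 0.05 for 2, edgeR called 1 and DESeq2 called 2. HMGCS1 had a difference of 0.47 (interval 0.14 to 0.79, limma adjusted p = 0.082), and was the gene called by edgeR (adjusted p = 0.011). SREBF2 had −0.35 (interval −0.63 to −0.08, limma adjusted p = 0.14) and SREBF1 −0.30 (interval −0.66 to 0.05, limma adjusted p = 0.42). The intervals of the other 5 genes all included 0. DESeq2 called HMGCS1 and SREBF2 (adjusted p = 0.0035 and 0.024).

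**Figure D3:**
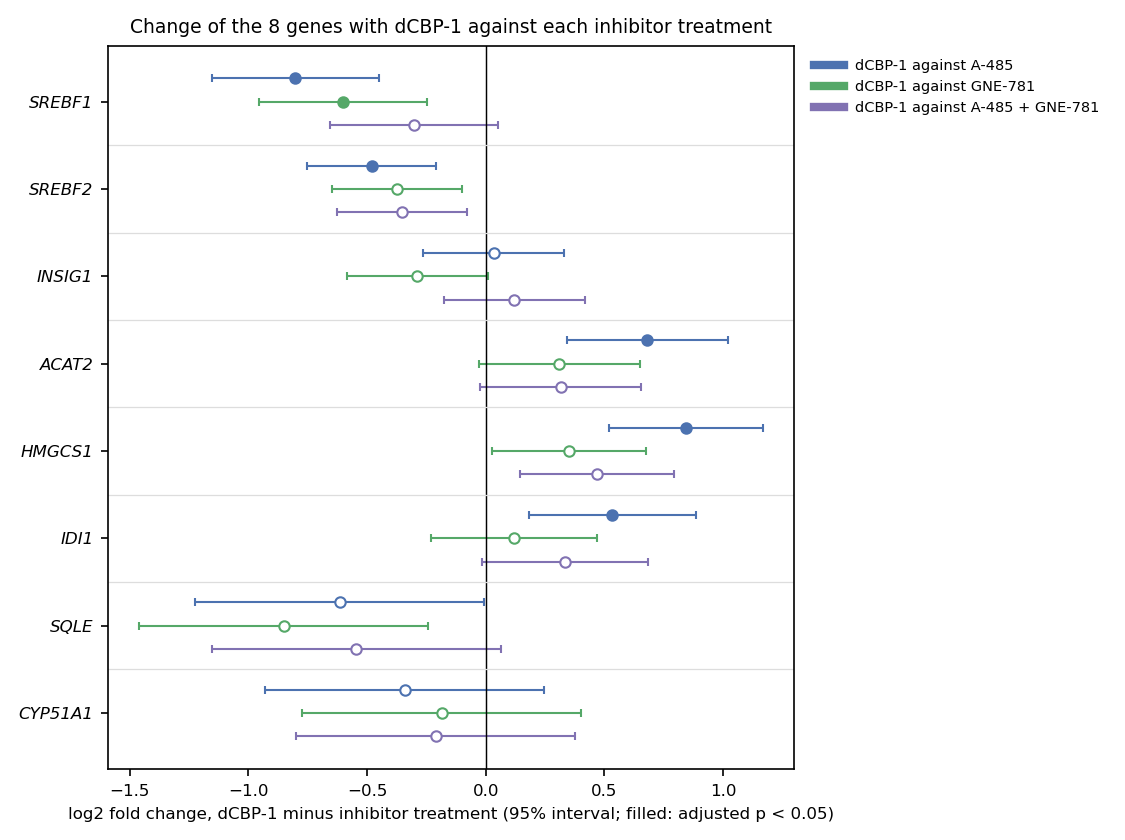
Log2 fold changes (x axis, dCBP-1 minus each inhibitor treatment) of the 8 genes with 95% intervals from the limma fit; filled points have an adjusted p below 0.05. Filled points number 5 against A-485, 1 against GNE-781 and 0 against the combination.

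Among the inhibitor treatments no member was called by limma in any pair. The combination against GNE-781 had 0 called, with 1 at an unadjusted p below 0.05 (INSIG1, −0.41, interval −0.71 to −0.11) and 0 by edgeR or DESeq2; over all genes limma called 0%, with 494 below an unadjusted p of 0.05, edgeR 0 and DESeq2 5. The libraries of this pair did not overlap for 1 of the 8 genes, against 10.4% of all genes. The combination against A-485 had 0 called (3.20% of all genes), with 3 at an unadjusted p below 0.05 and 2 whose libraries did not overlap (22.0% of all genes). SREBF1 was among these, at −0.50 (interval −0.85 to −0.15, limma adjusted p = 0.11), and was called by edgeR (adjusted p = 0.018) and DESeq2 (adjusted p = 0.0035), and by limma without combination replicate 3 (−0.67, adjusted p = 0.037). Here TMM moved the median of all genes to 0.01, against 0.11 as deposited, and SREBF1 then had −0.60. A-485 against GNE-781 had 0 called (1.0% of all genes), with 4 at an unadjusted p below 0.05, 0 by edgeR or DESeq2, and 2 whose libraries did not overlap (19.9% of all genes). The HMGCS1 difference was −0.49 (interval −0.82 to −0.17, limma adjusted p = 0.15), with A-485 libraries at 859, 699 and 569 and GNE-781 libraries at 1028, 946 and 977.

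Wider lists of the same pathways were counted, with the 8 genes inside them. These counts are read against the same background shares and all-gene medians as the 8 genes; against DMSO replicate 3 alone, the background was 1255 higher and 2547 lower of 16104 genes with dCBP-1, 161 and 728 with GNE-781, 291 and 790 with the combination, and 7 and 6 with A-485. Of 21 cholesterol synthesis enzymes tested, 9 rose and 4 fell with dCBP-1, against 19.3% and 18.5% of all genes tested in each direction. Their median log2 fold change was 0.13, where that of all genes was 0.07. TM7SF2, a sterol reductase, had 679.8, 695 and 694 normalized read counts with dCBP-1, against 320.0, 225 and 349.6 with DMSO (1.23 ± 0.17, limma adjusted p = 6.5e-07). PMVK, the phosphomevalonate kinase, fell (−0.89 ± 0.13, limma adjusted p = 3.6e-06). LBR, which shares the reductase activity of TM7SF2, fell too (−0.52 ± 0.13, adjusted p = 0.0021; named after its value was seen). Against DMSO replicate 3 alone, 4 rose and 4 fell. MVK, the mevalonate kinase, then had −0.20 in place of 0.90, and HSD17B7, a sterol ketoreductase, 0.23 in place of 1.33 (both named after their values were seen). With A-485 limma called 0 of the 21 (5 at an unadjusted p below 0.05; edgeR 1, DESeq2 3), with GNE-781 4 rose and 2 fell, and with the combination 7 rose and 4 fell. Without DMSO replicates 1 and 2 these became 0, 0 and 2, and 0 and 1.

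Of 17 genes of SREBP processing and sterol sensing, 3 rose and 7 fell with dCBP-1, where 19.3% of all genes rose and 18.5% fell. The median was −0.31, and that of all genes 0.07. MBTPS1, the first of the proteases that cut SREBPs, fell by 0.51 ± 0.14 (limma adjusted p = 0.0039). SCAP (0.23, interval −0.05 to 0.51), INSIG2 (0.11, −0.29 to 0.51) and MBTPS2 (−0.17, −0.54 to 0.21) were not called with dCBP-1. Without DMSO replicates 1 and 2, 1 gene of the list rose and 6 fell. A-485 had 2 lower, GNE-781 3 lower, and the combination 1 higher and 5 lower; without those libraries the counts were 0, 2 lower and 4 lower. For GNE-781 edgeR called 1 higher and 5 lower, and DESeq2 1 higher and 6 lower.

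Of 11 fatty acid genes tested, most of them known SREBF1 targets, 3 rose and 5 fell with dCBP-1 (19.3% and 18.5% of all genes), with a median of −0.31 (0.07 over all genes), and 1 and 4 without DMSO replicates 1 and 2. LPIN1, a phosphatidate phosphatase, had 674, 586 and 1028 normalized read counts with dCBP-1, against 2558, 2088 and 1917 with DMSO (−1.55 ± 0.17, limma adjusted p = 1.8e-08). ME1, the malic enzyme that supplies NADPH, fell by 0.85 ± 0.18 (limma adjusted p = 0.00038). ACSS2, an acetyl-CoA synthetase, rose by 0.86 ± 0.25 (limma adjusted p = 0.0079), and so did GPAM, an acyltransferase of glycerolipid synthesis (0.57 ± 0.16, adjusted p = 0.0067; 0.058 without DMSO replicates 1 and 2). A-485 had 2 lower, GNE-781 1 higher and 1 lower, and the combination 1 higher and 3 lower; without DMSO replicates 1 and 2 these became 0, 0 and 1 lower. For A-485 edgeR called 1 lower and DESeq2 2 lower.

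FASN, the fatty acid synthase and a known SREBP target, had 3938, 4181 and 3210.4 normalized read counts with A-485, 4552, 3866 and 5224 with GNE-781, 4081, 4117 and 3869 with the combination, 6377, 5603 and 6249 with dCBP-1, against 7126, 5298 and 5391 with DMSO. The dCBP-1 libraries overlapped DMSO, while those of A-485, GNE-781 and the combination lay below it. FASN fell by 0.65 ± 0.14 with A-485 (limma adjusted p = 0.011) and by 0.55 ± 0.14 with the combination (limma adjusted p = 0.0056), calls that were lost without DMSO replicate 1 (−0.51, adjusted p = 0.078, and −0.41, adjusted p = 0.053) or against DMSO replicate 3 alone (−0.52, adjusted p = 0.28, and −0.42, adjusted p = 0.17). The A-485 call was also lost without A-485 replicate 3 (−0.54, adjusted p = 0.072). GNE-781 had −0.38 (interval −0.67 to −0.10, limma adjusted p = 0.059), a fall called in 6 of 17 alternatives. With dCBP-1 the value was 0.04 (interval −0.24 to 0.33). dCBP-1 libraries were higher than those of A-485 (0.69 ± 0.14, limma adjusted p = 0.00041) and of the combination (0.59 ± 0.14, limma adjusted p = 0.0059), with no DMSO library in the fold change. The difference from GNE-781 was 0.43 (interval 0.14 to 0.71, limma adjusted p = 0.052), called in 8 of 16 alternatives. SCD, the stearoyl-CoA desaturase, fell with the combination (−0.51 ± 0.15, limma adjusted p = 0.014; lost without DMSO replicate 3, −0.38, adjusted p = 0.059, or combination replicate 1, −0.40, adjusted p = 0.081). With dCBP-1 it had −0.31 (interval −0.61 to −0.01, limma adjusted p = 0.098). This fall was called in 6 of 17 alternatives, and was −0.57 against DMSO replicate 3 alone.

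Among genes of cholesterol uptake and traffic, TMEM97, an endoplasmic reticulum protein of sterol traffic, fell by 1.03 ± 0.13 (limma adjusted p = 2.5e-07). NPC1, which exports cholesterol from lysosomes, and OSBP, a sterol carrier, rose by 0.57 ± 0.17 and 0.52 ± 0.14 (limma adjusted p = 0.0081 and 0.0046), but neither was called without DMSO replicates 1 and 2 (adjusted p = 0.084 and 0.33). Of the 10 uptake and traffic genes tested, 2 rose and 3 fell with dCBP-1, near the background of 19.3% and 18.5% (0 and 3 without DMSO replicates 1 and 2). In this list 2 fell with GNE-781, 1 with the combination (edgeR and DESeq2 1 higher and 2 lower each) and 0 with A-485 (2 at an unadjusted p below 0.05; edgeR 0, DESeq2 0); the median with dCBP-1 was −0.12, where that of all genes was 0.07.

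ABCA1, the cholesterol exporter induced by the sterol-activated receptors LXR, had 253, 191 and 195 normalized read counts with A-485, 161, 225 and 171 with GNE-781, 135, 136 and 178 with the combination, 72.6, 65.4 and 39.1 with dCBP-1, against 287, 398 and 357 with DMSO. All treated libraries lay below DMSO, and the dCBP-1 libraries below all others. It fell by 2.57 ± 0.22 with dCBP-1 (limma adjusted p = 1.4e-10), by 1.21 ± 0.22 with the combination (limma adjusted p = 0.00027) and by 0.90 ± 0.22 with GNE-781 (limma adjusted p = 0.0056; not called without DMSO replicates 1 and 2, adjusted p = 0.071). ABCG1, a related exporter, fell by 1.72 ± 0.15 with dCBP-1 (limma adjusted p = 2.9e-10), and MYLIP, an LXR-induced ubiquitin ligase, by 1.06 ± 0.15 (limma adjusted p = 1.9e-06). NR1H2, which encodes LXRβ, fell by 0.47 ± 0.15 (limma adjusted p = 0.013; −0.42 and adjusted p = 0.15 without DMSO replicates 1 and 2, and also lost without dCBP-1 replicate 3, −0.34, or DMSO replicate 2, −0.41). Of 7 efflux and LXR genes tested, 0 rose and 4 fell with dCBP-1 (3 fell without DMSO replicates 1 and 2), with a median of −0.47 (all genes 19.3%, 18.5% and 0.07); GNE-781 and the combination also had 4 lower each (0 and 3 without those libraries), and with A-485 limma called 0 (4 at an unadjusted p below 0.05; edgeR 0, DESeq2 2).

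On the branch that leads from the same intermediates to isoprenoids, 3 of 9 genes rose and 0 fell with dCBP-1, with a median of −0.02 (all genes 19.3%, 18.5% and 0.07); edgeR and DESeq2 each called 3 higher and 2 lower. PDSS2, a subunit of the synthase that makes the side chain of coenzyme Q, rose by 1.13 ± 0.18 (limma adjusted p = 1.3e-05; 0.68 without DMSO replicates 1 and 2, adjusted p = 0.026). GGPS1 and DHDDS, prenyl chain synthases, rose by 0.43 ± 0.15 and 0.40 ± 0.15 (limma adjusted p = 0.021 and 0.039), and lost their calls without DMSO replicates 1 and 2 (adjusted p = 0.55 and 0.073). Without those libraries 1 gene of the list rose and 2 fell. With GNE-781 and with the combination 1 rose (0 without DMSO replicates 1 and 2), and with A-485 limma called 0 (1 at an unadjusted p below 0.05; edgeR 1, DESeq2 1).

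**Figure D4:**
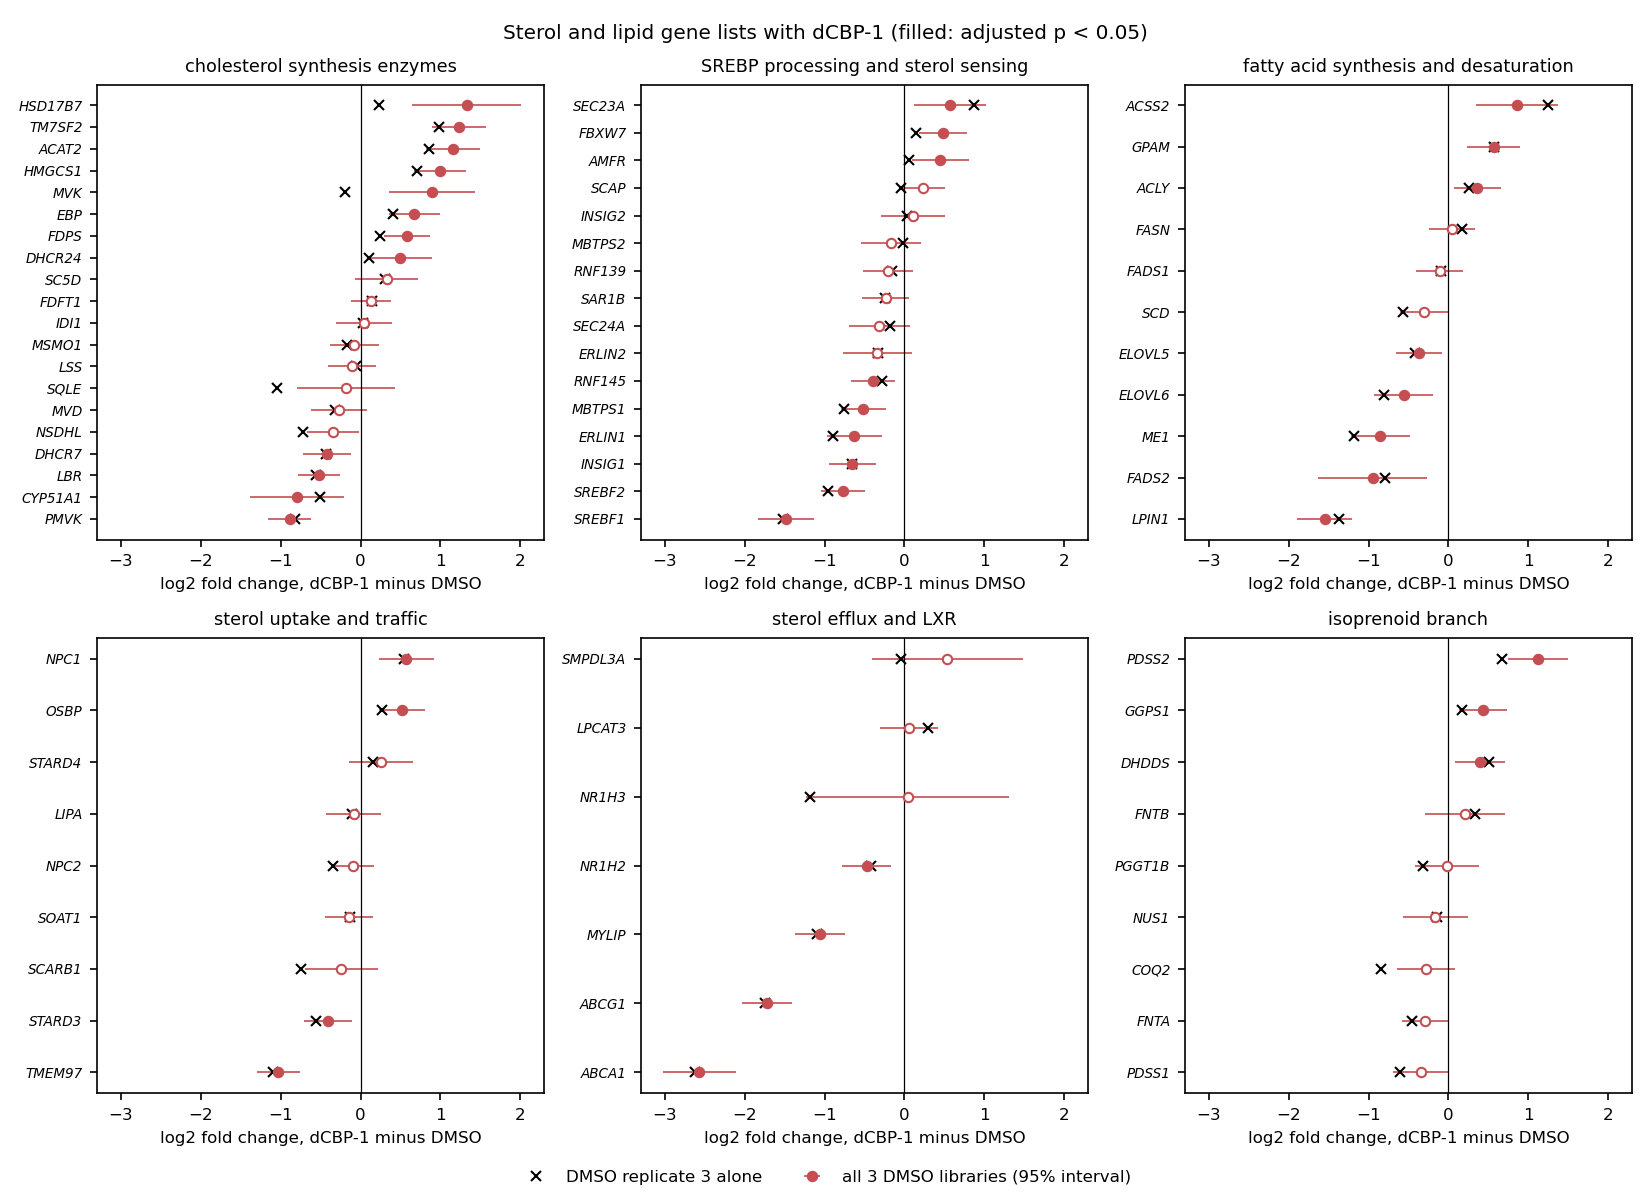
Log2 fold changes (x axes, dCBP-1 minus DMSO) of genes tested in 6 lists, with 95% intervals; filled points have an adjusted p below 0.05, and crosses give the value against DMSO replicate 3 alone. The crosses of MVK and HSD17B7 lie far from their points, and those of SREBF1, INSIG1, ABCG1 and ABCA1 lie close to theirs.

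Genes that overlap or adjoin the members were read as well, since the strand setting of the counting is not given in the sources used here and reads of opposite strands could mix. TCP1, on the strand opposite ACAT2 and overlapping it, had 2917, 2840.0 and 2927 normalized read counts with dCBP-1, against 2422, 2296 and 2708 with DMSO (0.23 ± 0.13, limma adjusted p = 0.17). These groups did not overlap, and TCP1 was called under TMM or median-ratio scaling and by edgeR or DESeq2 (adjusted p 0.024 to 0.046). RAI1, which overlaps SREBF1 on the opposite strand, fell by 0.81 ± 0.20 with dCBP-1 (limma adjusted p = 0.0022). SREBF2-AS1, antisense to SREBF2, had 17.7, 8.89 and 14.2 with dCBP-1, against 39.4, 40.1 and 35.2 with DMSO (−1.47 ± 0.37, limma adjusted p = 0.0022). AKAP9, whose end faces that of CYP51A1, rose by 0.52 ± 0.14 (limma adjusted p = 0.0033). Without DMSO replicates 1 and 2 the calls of RAI1, SREBF2-AS1 and AKAP9 were lost (adjusted p = 0.051, 0.05 and 0.091). Other annotated neighbours with values, whose levels are not given here, were WASHC5 beside SQLE, SNORA20 beside ACAT2, CYP51A1-AS1, IDI2-AS1, MIR33A and MIR33B. The part of any neighbour in the members' values was not tested.

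The patterns most like those of the members were sought over the 15 libraries among 8019 genes at or above the median level, as the root mean square distance between log2 values centred on each gene's mean. Among the 5 nearest to SREBF1 were SEMA4A at 0.12, CSTB at 0.13, ITM2C at 0.14 and DAPP1 at 0.15, where the median distance was 0.57. Nearest to SREBF2 were ITPR3 at 0.080, MARCHF6 at 0.081, SNHG17 at 0.092, EZR at 0.094 and SEMA4D at 0.097, where the median was 0.34. The mean profile of the 5 enzymes and INSIG1 averages genes of opposite direction, and its root mean square about its own mean was 0.16, against 0.55 for SREBF1 and 0.27 for SREBF2. Nearest to this average were LINS1, MCM6, MIS18A, NUDT11 and SRSF4, at 0.082 to 0.087, where the median was 0.24; none was called with dCBP-1.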

How the data were processed

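RNA of MM.1S cells was measured in 15 libraries, 3 in each of 5 groups, grouped by sample titles. Per the labels' protocols, libraries came from a kit for mRNA 3′ ends, and hg19 is the build in the submitters' processing notes. Aligner, counter, annotation and strand setting are not given in the sources used here. The deposited signal is what the authors call normalized read counts. Every value was a whole multiple of 1 step per library (100% within 0.01 of a whole read), so reads were recovered by multiplying back. Depth was 13103114 to 18291529 reads a library; intervals cover the spread between libraries only. Genes with later identifiers than the last complete row of 47459 were not analysed here.

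limma-trend (limma 3.58.1, R 4.3.3) was fitted to log2(value + 1) for 16104 genes with a value of at least 5 in 3 or more libraries, with 5 group means, two-sided, over 10 comparisons. Fold changes are on this scale, which understates changes of low genes. Alternatives were TMM and median-ratio scaling, no filter or one at 20, pseudocounts 0.25 and 5, a fit to the compared groups alone, a replicate block, edgeR 4.0.16 and DESeq2 1.42.0 on recovered reads, each library left out in turn, and DMSO replicates 1 and 2 left out together (the lone DMSO library then takes the spread of the other groups). The fit was tested on simulated data. Nothing says that replicates were separate cultures, so p-values measure the spread between these libraries, which may be technical. Replicates of a group differed by more than counting error (chi-square over degrees of freedom 5.32 to 42.8).

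The members and lists were chosen with earlier results of these data known. Named are the 8 members, SCAP, INSIG2, MBTPS1, MBTPS2, FASN, SCD, ABCA1 and MYLIP, up to 4 called genes of each list with the smallest p in dCBP-1 against DMSO, the 5 genes nearest to a member's pattern, and annotated neighbours; a few genes that the rule names are not reported here, though the list counts include them. Symbols matched 96.5% of identifiers.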

Additional observations from a re-analysis of the deposited data

How the results depend on the processing

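Counts of the 8 genes called moved by over 1.5 times as follows. A-485 against DMSO had 2, with 1 under no filter, 0 with only the groups compared, 0 without DMSO replicates 1 and 2 together, and 0 to 3 with single libraries left out. GNE-781 against DMSO had 4, with 2 without DMSO replicates 1 and 2 together. The combination against DMSO had 5, with 3 without DMSO replicates 1 and 2 together and 3 to 5 with single libraries left out. dCBP-1 against DMSO had 6, and 5 or 6 in every alternative, though not always the same genes. dCBP-1 against the combination had 0, with 1 under TMM, 1 under median-ratio scaling, 1 with edgeR and 2 with DESeq2. dCBP-1 against GNE-781 had 1, with 3 under TMM, 3 under median-ratio scaling, 4 with only the groups compared, 0 with no filter, 3 with edgeR, 4 with DESeq2 and 0 to 1 with single libraries left out. dCBP-1 against A-485 had 5, and 4 to 6 in every alternative. The combination against A-485 had 0, with 1 each under TMM, median-ratio scaling, edgeR and DESeq2 and 0 to 1 with single libraries left out. A-485 against GNE-781 had 0, with 1 with only the groups compared. The cause of these shifts was not tested. SQLE, not called against DMSO in the limma fit to all 15 libraries, changed sign across the alternatives. Its values ran from −0.42 to 0.86 with A-485 and from −0.19 to 1.10 with GNE-781. They ran from −0.49 to 0.79 with the combination and from −1.04 to 0.25 with dCBP-1. No value of a member called in the limma fit to all 15 libraries changed sign in any alternative. Of the other genes named, MVK did without DMSO replicates 1 and 2 together, with −0.20 in place of 0.90 with dCBP-1 and −0.26 in place of 0.83 with the combination, and so did HSD17B7 with the combination, at −0.08 in place of 1.02.

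Replicate numbers did not pair the libraries: same-numbered libraries had correlations of their deviations from −0.524 to 0.397, with 7 of 30 above 0.1, and 4 of 15 libraries correlated best with their own number. With the replicate block, 2 members were called with A-485, 3 with GNE-781, 5 with the combination and 6 with dCBP-1, and the SREBF2 value with GNE-781 was −0.40 (adjusted p = 0.066). SQLE and CYP51A1, with as few as 33 reads in a library, are the members whose values depth limits most.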
